A study of Mus with 8 samples.

Results

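Endothelial identity and angiogenesis genes were followed in whole tumours grown from Pan02, an established line of mouse pancreatic cancer cells. The set holds 36 genes chosen by name for what they do in blood vessels, and a gene counted as present on the array when the RefSeq accession of a probe matched it. All 36 had a probe, out of 22911 named genes on the array, and 35 of them cleared the scanner's background test on 4 or more of the 8 arrays and were tested among 16068 genes. The remaining member, the lymphatic factor Prox1, cleared it on none. By role there were 16 identity and junction genes, 5 transcription factors, 3 tip cell and apelin genes, 4 angiopoietin and Tie genes, 5 Notch and arterial genes, 2 venular adhesion genes and Prox1.

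Pan02 cells had been placed under the skin of B6 mice of 2 kinds. Control hosts were wild type, and Mutant hosts carried Ext1 flox/flox together with S100a4-Cre, which removes the heparan sulfate polymerase Ext1 from cells that express S100a4, known from fibroblasts and some other stromal cells. The cancer cells carried intact Ext1 in both groups. The endothelium is host tissue in both groups, and whether S100a4-Cre was active in it is not stated. Tumours were taken 36 to 40 days after transplantation, 4 per group, and total RNA of each whole tumour was hybridised to 1 Cy3 array. A level is the log2 signal after subtraction of its array's 75th percentile, and differences are Mutant minus Control on that log2 scale. Nothing in the sources used here says that tumours were pooled, and each was treated as 1 animal.

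Per array, 61.5% to 67.2% of 56605 probes cleared background and 0 spots were saturated. Control 4 stood apart from the other tumours, since 35.2% of all genes had their lowest level there, beside at most 13.5% in any other tumour. It also held the highest level of 22.4% of genes, and Control 3 held that of 25.3%. Member differences that changed sign without Control 4 are given both ways, as are some of those that moved without a change of sign. The labels name the cell type as pancreatic cancer cell. The epithelial keratins Krt8 and Krt18 were well above background in every tumour, whereas the epithelial adhesion gene Epcam was not above background in any. The pan-endothelial markers Pecam1, Cdh5 and Emcn were above background on all 8 arrays, so endothelial RNA was measured in every tumour.

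Endothelial cells line all vessels and are recognised by junction and surface proteins such as VE-cadherin and CD31. In a growing tumour, sprouts are led by tip cells, whose number is restrained by Dll4 and Notch signalling, while angiopoietins acting on the Tek receptor set how stable the vessel wall is. Heparan sulfate on cells and matrix binds vascular growth factors, which makes the vessel genes of interest in hosts whose S100a4-expressing cells lose Ext1. Heparan sulfate itself was not measured here. In bulk RNA, fewer endothelial cells and less RNA per endothelial cell cannot be told apart.

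No member was called different between the 2 kinds of host. None of the 35 tested members passed limma at an adjusted p under 0.05, and 0 of all 16068 genes (0.0%) did. At an unadjusted p under 0.05 there were 0 members, beside 2.91% of all genes (1.87% higher and 1.03% lower in Mutant tumours), and the groups overlapped in every member, beside 1.42% of all genes whose groups did not. The difference was above 0 in 26 of 35 members (74.3%), beside 52.4% of all genes, with a median of 0.11 beside 0.01. Of these 26 differences, 17 were within their standard error. This lean rested on single tumours. Without Control 1, 17 of 35 differences were above 0 and the median was -0.01, while without Mutant 1 there were 30 of 35 and a median of 0.20. Without Control 3 there were 20 of 35 with a median of 0.03, and without Mutant 4 there were 19 of 35 with a median of 0.02. Without Control 4 there were 26 of 35 with a median of 0.20. Both rows of the slide held 2 tumours of each group, and the median was 0.01 within row 1 and 0.27 within row 2. The difference was larger than its standard error in 10 members (28.6%), beside 27.7% of all genes.

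**Figure D1:**
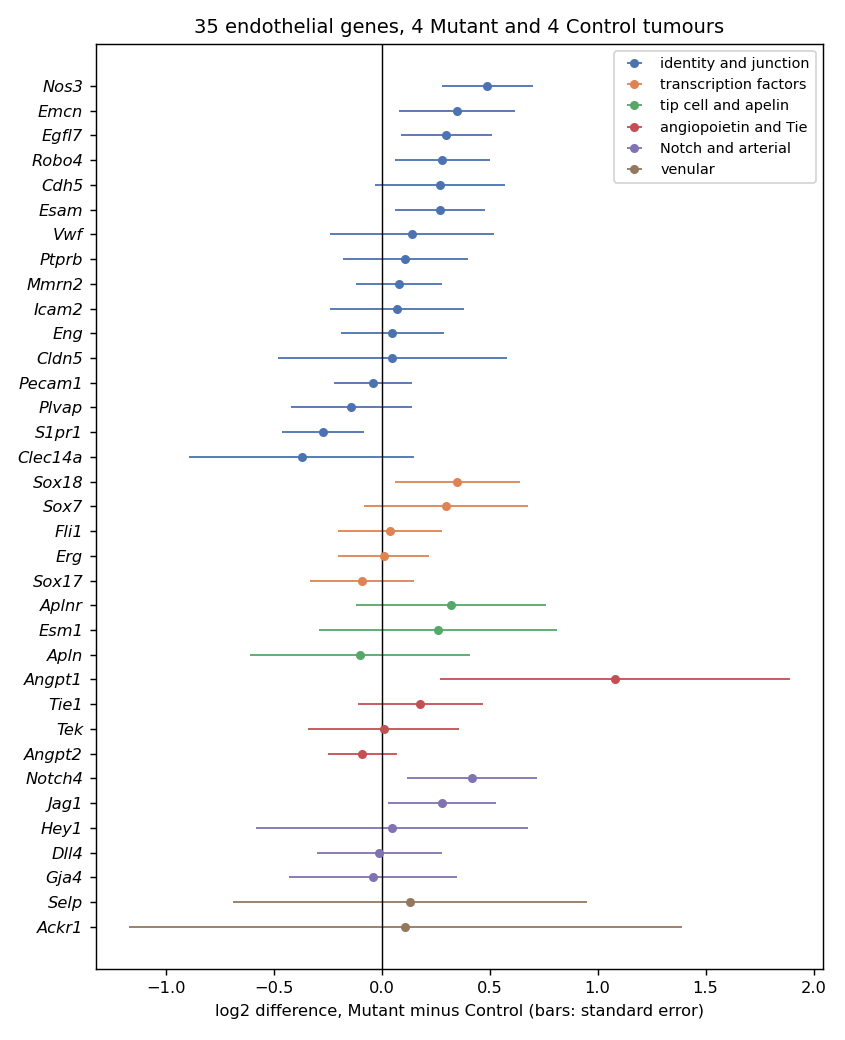
Log2 difference between Mutant and Control tumours (points) with its standard error (bars) for the 35 tested endothelial genes, coloured by role. The differences ran from -0.37 for Clec14a to 1.08 for Angpt1, and the bars of 25 genes crossed 0.

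No identity gene passed the test. Their median difference was 0.10 over 16 genes, 12 above 0 and 4 below, and single genes ran from -0.37 to 0.49. Cdh5, the VE-cadherin of endothelial junctions, read 0.51, 1.54, 0.50 and 0.37 in the Control tumours, in order of their numbers, and 0.59, 0.84, 1.08 and 1.49 in the Mutant ones. Control 2 and Mutant 4 were the high tumours and the groups overlapped. The difference was 0.27 with a standard error of 0.30 and a 95% interval from -0.43 to 0.98 (limma adjusted p = 1), and it was -0.31 within slide row 1 and 0.86 within row 2. Pecam1, the adhesion molecule CD31, read -1.94, -1.44, -2.17 and -1.74 in Control and -2.09, -1.98, -1.73 and -1.66 in Mutant tumours. All 8 values lay within a 1.66-fold range and the groups overlapped. Its difference was -0.04 (95% interval -0.47 to 0.38, limma adjusted p = 1).

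Nos3, the endothelial nitric oxide synthase, had the smallest p of the members. It read 0.67, 0.99 and 0.41 in Control 1, 3 and 4 and 0.96, 1.11, 1.06 and 1.59 in the Mutant tumours. Mutant tumours were the higher ones, but Control 3 lay above Mutant 1. The spot of Control 2 was marked as an outlier by the scanner software and is not in this fit, where Mutant minus Control was 0.49 (standard error 0.21) (limma unadjusted p = 0.0517, adjusted p = 1; two-sided exact permutation p = 0.0857 over 35 arrangements). With the marked spot kept, which was added once the values were known, Control 2 read 0.05, the lowest of the tumours, and the difference was 0.65 (limma unadjusted p = 0.022, adjusted p = 1; two-sided exact permutation p = 0.0571). The difference lay between 0.35 and 0.64 when single tumours were left out.

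Emcn, Egfl7, Robo4 and Esam had differences above 0 that did not pass the test, each with Control 2 and Mutant 4 as its highest tumours. Emcn, the endothelial sialomucin endomucin, read 0.69, 1.75, 1.20 and 0.96 in Control and 1.36, 1.31, 1.28 and 2.04 in Mutant tumours (difference 0.35, standard error 0.27). Egfl7, a secreted protein of the vessel matrix, read 3.35, 4.16, 3.74 and 3.51 in Control and 3.85, 3.94, 3.78 and 4.38 in Mutant tumours (difference 0.30, standard error 0.21). In both genes Control 1 was the lowest tumour and the groups overlapped. Robo4, a guidance receptor that stabilises vessels, read 1.40, 2.22, 1.71 and 1.57 in Control and 1.72, 1.97, 1.88 and 2.43 in Mutant tumours (difference 0.28). The junction protein Esam read 0.04, 0.92, 0.44 and 0.44 in Control and 0.48, 0.76, 0.59 and 1.07 in Mutant tumours (difference 0.27). The groups overlapped in these too, and leaving out Mutant 4 took the differences of Emcn, Egfl7, Robo4 and Esam to 0.17, 0.17, 0.14 and 0.15. S1pr1, the receptor for sphingosine 1-phosphate, was the identity gene that lay lower by more than its standard error. It read -0.50, -0.20, -0.41 and 0.09 in Control and -0.89, -0.50, -0.52 and -0.20 in Mutant tumours. Control 4 was the highest and Mutant 1 the lowest, and the difference was -0.27 with a standard error of 0.19 (limma adjusted p = 1 for all of these genes).

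The other identity genes differed by less than their standard errors. Vwf, the von Willebrand factor that platelets bind, differed by 0.14, with Control 2 at 3.48 and Mutant 3 and 4 at 3.17 and 3.28 above tumours at 2.17 to 2.35. Within slide row 1 the Vwf difference was -0.69 and within row 2 it was 0.97. Cldn5, a claudin of tight junctions, varied more, from -0.67 in Control 4 to 1.56 in Control 2, and differed by 0.05, or by -0.25 without Control 4. The TGF-beta coreceptor Eng (0.05), the matrix protein Mmrn2 (0.08), the phosphatase Ptprb (0.11), the adhesion molecule Icam2 (0.07) and the fenestral diaphragm protein Plvap (-0.14) had standard errors of 0.20 to 0.31. Without Control 4 the difference was 0.27 for Eng, 0.38 for Ptprb, -0.04 for Icam2 and 0.07 for Plvap. Clec14a, a lectin-like receptor, was dim and above background on 3 of 4 Control arrays. It differed by -0.37 with a standard error of 0.52, and by 0.11 without Control 4.

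None of the endothelial transcription factors passed the test. The ETS factors Erg and Fli1, which keep endothelial genes active, differed by 0.01 and 0.04 with standard errors of 0.21 and 0.24. Fli1, which is also expressed by blood cells, differed by 0.23 without Control 4. The SOXF factors guide arterial and lymphatic fate. Sox7 read -3.02, -1.55, -2.91 and -3.19 in Control and -2.84, -2.51, -2.25 and -1.88 in Mutant tumours. Control 2 was above every other tumour, and without it the Sox7 difference was 0.67 in place of 0.30, with a limma unadjusted p of 0.0257 and an adjusted p of 0.798. Sox18 read -0.82, 0.00, -0.74 and -0.96 in Control and -0.38, -0.51, -0.64 and 0.40 in Mutant tumours. Control 2 and Mutant 4 were again the highest, the groups overlapped, and the difference was 0.35 with a standard error of 0.29. Sox17 differed by -0.09 with a standard error of 0.24 (limma adjusted p = 1 for each).

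Tip cell genes varied widely from tumour to tumour, and none passed the test between hosts. Esm1, the proteoglycan endocan secreted by tip cells, read -1.02, 0.59, 1.49 and 0.88 in Control and 0.03, 0.66, 1.50 and 0.79 in Mutant tumours. Control 3 and Mutant 3 were the highest and Control 1 the lowest, a 5.74-fold range. The difference was 0.26 with a 95% interval from -1.01 to 1.52 and was -0.24 without Control 1. Apln, the secreted peptide apelin made by tip cells, read 0.19, 1.44, 1.45 and 1.01 in Control and -0.24, 0.93, 2.18 and 0.81 in Mutant tumours. Mutant 3 was again the highest, while Mutant 1 and Control 1 were the lowest. The difference was -0.10 with a 95% interval from -1.29 to 1.09. Its receptor Aplnr differed by 0.32 with a standard error of 0.44, and its highest values, -1.92 and -2.08, were in Mutant 2 and Control 2 (limma adjusted p = 1 for each). Hypoxia genes, which low oxygen induces, were measured in 13 of 13 listed members. The difference was below 0 in all 13. By limma, 4 of them were lower at an unadjusted p under 0.05, beside 1.03% of all genes, and 0 at an adjusted p under 0.05. Their list level, the mean of gene-centred log2 levels, was 0.15, 0.32, 0.68 and 0.03 in Control and -0.48, -0.44, 0.36 and -0.63 in Mutant tumours. Control 3 and Mutant 3 were the highest of their groups here as for Esm1 and Apln, although for Apln Control 2 was nearly equal to Control 3 (1.44 and 1.45). The summed hypoxia signal ran from 9.02 to 9.83 in Control and from 8.78 to 9.45 in Mutant tumours, and its part in the tip cell values was not tested.

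Angpt1 was the member with the widest difference between the groups and Angpt2 was one of the steadiest. Angpt1, the angiopoietin from perivascular and stromal cells that activates Tek, read -0.60, -0.36, 1.50 and -1.56 in Control and 1.96, 1.54, -1.01 and 0.82 in Mutant tumours. Mutant 1, 2 and 4 and Control 3 were high, and Mutant 3 lay with the low Control tumours, so that the groups overlapped over an 11.5-fold range. The difference was 1.08, or 2.12-fold, with a standard error of 0.81 and a 95% interval from -0.79 to 2.96 (limma adjusted p = 1; two-sided exact permutation p = 0.314, where 4 against 4 tumours cannot go below 0.0286). It was 2.24 within slide row 1 and -0.07 within row 2, 0.65 without Control 4 and 1.70 without Mutant 3. Angpt2, the angiopoietin stored in endothelial cells that loosens vessels, read -0.34, -0.28, -0.15 and -0.17 in Control and -0.53, -0.53, 0.13 and -0.35 in Mutant tumours. All tumours lay within a 1.59-fold range, Mutant 3 being the highest, and the difference was -0.09 with a 95% interval from -0.47 to 0.30. The log2 ratio of Angpt1 to Angpt2 signals was -0.26, -0.09, 1.65 and -1.38 in Control and 2.49, 2.07, -1.14 and 1.17 in Mutant tumours. It followed Angpt1 and overlapped between the groups (difference 1.17, two-sided exact permutation p = 0.343).

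Neither receptor of the angiopoietins passed the test. Tek, the receptor also called Tie2, read -4.20, -3.11, -4.28 and -2.80 in Control and -3.75, -3.53, -3.77 and -3.31 in Mutant tumours. Control 4 was the highest, the Mutant values lay inside the Control range, and the difference was 0.01 (95% interval -0.81 to 0.83), or 0.28 without Control 4. Tie1, the partner receptor of Tek, was highest in Control 2 and Mutant 4, at -0.55 and -0.59. It differed by 0.18 with a standard error of 0.29 (limma adjusted p = 1 for Tek and Tie1).

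**Figure D2:**
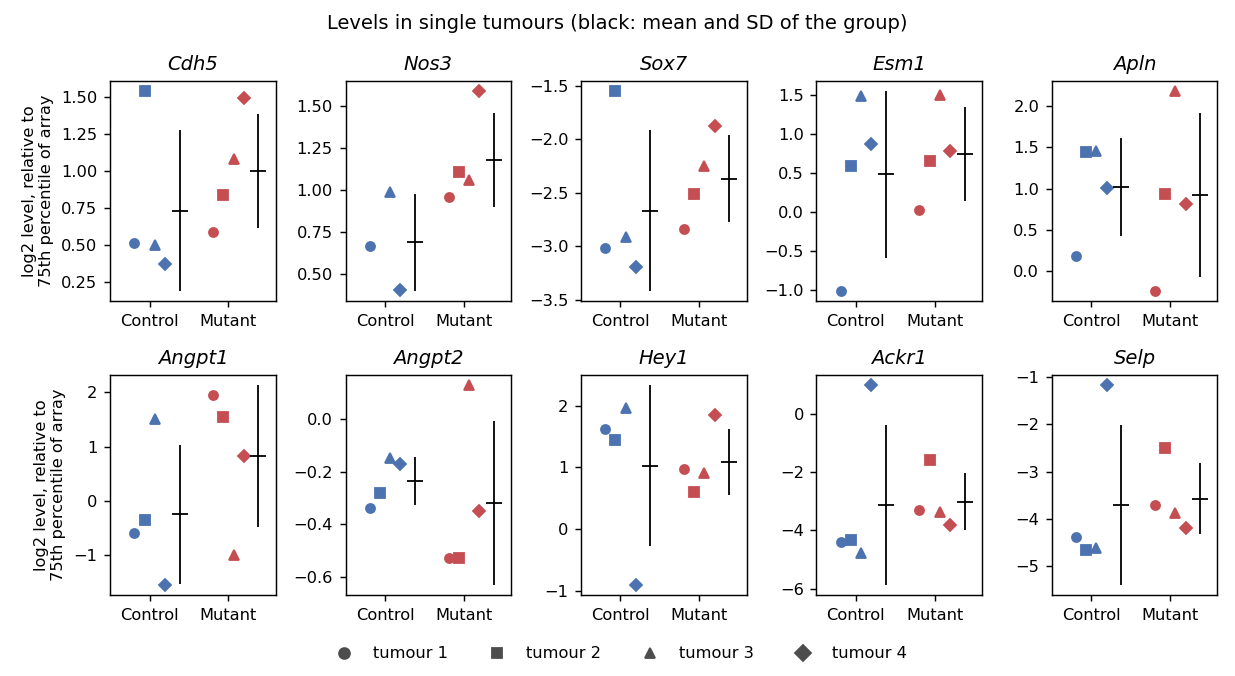
Log2 level of each tumour, centred on its array's 75th percentile, for 10 endothelial genes, with a marker shape per tumour number and the group mean and SD in black. Control 2 has no value for Nos3, Angpt1 spans 3.52 log2 units and Angpt2 0.67, and Ackr1 and Selp are highest in Control 4.

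Notch and arterial genes had a median difference of 0.05, with 3 of 5 above 0. Dll4, the Notch ligand of tip cells, read -3.57, -2.84, -3.50 and -3.98 in Control and -3.64, -3.95, -3.35 and -2.98 in Mutant tumours. Control 2 and Mutant 4 were the highest and Control 4 and Mutant 2 the lowest. The difference was -0.01, with a 95% interval from -0.67 to 0.66. Notch4, the endothelial Notch receptor, read 1.13, 2.21, 2.04 and 1.02 in Control and 1.94, 1.81, 1.92 and 2.39 in Mutant tumours. The Mutant values clustered near the 2 higher Control values, and the difference was 0.42 with a standard error of 0.30, or 0.22 without Control 4. Jag1, the ligand that opposes Dll4 in sprouting and that cancer cells can also make, read 0.80, 1.45, 1.04 and 0.77 in Control and 1.12, 0.75, 1.69 and 1.60 in Mutant tumours. Mutant 3 and 4 were the highest and Mutant 2 the lowest, and the difference was 0.28 with a standard error of 0.25. Hey1, a transcription factor induced by Notch, read 1.62, 1.45, 1.96 and -0.91 in Control and 0.97, 0.60, 0.91 and 1.85 in Mutant tumours. Control 4 lay far below the others, 0.167-fold of the mean of the other Control tumours. The Hey1 difference was 0.05 with Control 4 and -0.59 without it. The arterial connexin Gja4 differed by -0.04 and was highest in Control 4, without which the difference was 0.33 (limma adjusted p = 1 for each).

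The defining lymphatic factor Prox1, which specifies lymphatic fate, did not clear background on any of the 8 arrays. Its signals, -7.94, -7.48, -7.54 and -8.11 in Control and -6.68, -7.04, -7.70 and -6.43 in Mutant tumours, are therefore below a measurable level, and no fold is given. Of 9 other lymphatic genes 5 were tested, with a median difference of -0.33, and none passed (limma adjusted p = 1). Lyve1, a hyaluronan receptor of lymphatic vessels that some macrophages also carry, read -4.37, -4.05, -5.80 and 0.68 in Control and -5.64, -1.43, -3.80 and -4.37 in Mutant tumours. Control 4 was far above the rest and Mutant 2 came second, and the difference was -0.42 with Control 4 and 0.94 without it. Reln and the chemokine Ccl21a, both known from lymphatic endothelium, were too dim to be tested and had the same order at the top, with Reln at -2.03 in Control 4 and -5.37 in Mutant 2 and Ccl21a at -3.04 and -3.82. Other genes of the list did not share this order. Foxc2 was lowest in Control 4, at 0.26. Nr2f2 read 2.56 there and was highest in Control 3, at 2.81, and Itga9 was highest in Mutant 4, at -0.14.

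The venular adhesion genes set Control 4 and Mutant 2 apart from the other tumours. These genes, Hey1, Lyve1, Reln and Ccl21a are described because of their values. Ackr1, the chemokine-binding receptor of postcapillary venules, read -4.40, -4.32, -4.78 and 1.00 in Control and -3.29, -1.60, -3.38 and -3.80 in Mutant tumours. Control 4 held 45.1-fold the mean of the other Control tumours, and Mutant 2 was the second highest. Selp, the P-selectin of venules and platelets, read -4.38, -4.66, -4.63 and -1.16 in Control and -3.72, -2.49, -3.89 and -4.19 in Mutant tumours. Control 4 held 10.5-fold the mean of the other Control tumours, again followed by Mutant 2. A second Ackr1 probe and both further Selp probes gave the same pair of highest tumours, but they were dimmer. On the 4 Control arrays this Ackr1 probe cleared background 2 times and the Selp probes 1 and 2 times. The folds therefore rest on weak signal in the other Control tumours. The group differences were 0.11 and 0.13 with standard errors of 1.28 and 0.82. Without Control 4 they were 1.48 and 0.98 (limma adjusted p = 0.885 for both). The groups then did not overlap in these 2 of 35 members (5.71%), a share near the 4.28% of all genes without that tumour. The tumour left out is the one in which both genes were extreme. With normexp background correction and all tumours the differences were -0.26 and -0.11. Within slide row 1 they were 1.92 and 1.41 and within row 2 they were -1.70 and -1.14.

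The fibroblast list level was also highest in Control 4 and Mutant 2, which were the highest pair in 6 of its 9 genes. The share of all genes with this highest pair was not computed. Control 4 was the highest tumour in 7 of the 9, beside 22.4% of all genes. All 9 were measured, their list level was -0.85, -0.33, -1.50 and 2.38 in Control and 0.34, 1.23, -1.16 and -0.10 in Mutant tumours, and their summed signal ran from 6.34 to 10.55 in Control and from 7.36 to 9.61 in Mutant tumours. Platelet genes, which include other sources of P-selectin, were measured in 9 of 11 members and had a list level of -0.29, 0.12, -0.86 and 0.71 in Control and 0.03, 0.22, 0.19 and -0.11 in Mutant tumours, with a summed signal from 3.98 to 5.81 in Control and from 4.17 to 5.08 in Mutant tumours. Control 4 was the highest here too, and the platelet gene Tubb1 was not above background on any array. The part of either list in the Ackr1 and Selp values was not tested.

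A group of members varied with Cdh5 across the tumours. Cdh5 was taken as the reference after the values were seen, and 34 relations were computed. Each tumour had its own array, all arrays shared a slide and a scaling, and Nos3 has 7 tumours where the others have 8. Pearson's r with Cdh5 was at least 0.8 in 11 of 34 members (32.4%), beside 1.3% of all genes, and 10 passed over the 34 relations by a two-sided exact permutation test with Benjamini-Hochberg adjustment, while 2 did by Spearman's rho. Sox7 was closest (n = 8, r = 0.99, exact permutation p = 4.96e-05, adjusted p = 0.00169; rho = 0.98, exact permutation p = 0.000397, adjusted p = 0.0135) and kept r = 0.99 without Control 2 and Mutant 4, the tumours farthest from the Cdh5 median. Tie1 followed with r = 0.92 (exact permutation p = 0.00191, adjusted p = 0.0216; rho = 0.93, exact permutation p = 0.00223, adjusted p = 0.0379) and r = 0.62 without these tumours. Robo4 had r = 0.92 (exact permutation p = 0.00144, adjusted p = 0.0216; rho = 0.88, exact permutation p = 0.00724, adjusted p = 0.0615), and 0.76 without them. Vwf, Nos3, Sox18, Emcn, Egfl7, Dll4, Esam and Cldn5 had r between 0.81 and 0.92, of which Cldn5 did not pass (exact permutation p = 0.0163, adjusted p = 0.0504). Without Control 2 and Mutant 4 Dll4 had r = 0.40, so its relation rests on them, and Vwf, Sox18, Emcn, Egfl7, Esam and Cldn5 lay between 0.50 and 0.80. Nos3 had r = 0.81 without Mutant 3 and Mutant 4, the farthest of its 7 tumours. The tumour it lacks is Control 2, where Cdh5 was highest, at 1.54. With the marked outlier spot kept, Nos3 read 0.05 there, the lowest of the tumours. The r of Nos3 therefore depends on leaving out that spot, and it was not computed with the spot kept. With group means removed, an analysis added after the values were seen, the 11 genes had r from 0.77 to 0.99, and with slide row means removed from 0.81 to 0.99.

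Pecam1, Notch4, Erg, Icam2, Sox17 and Jag1 had r between 0.71 and 0.79 and did not pass after adjustment. The genes with the lowest r were Angpt1 (r = -0.02), Angpt2 (0.06), Ptprb (0.08), Fli1 (-0.09), Plvap (0.17), Clec14a (-0.17), S1pr1 (0.18), Eng (-0.18), Esm1 (0.21) and Gja4 (-0.24), and the venular genes Ackr1 (-0.37) and Selp (-0.43), with exact permutation p of 0.29 or more for all of them. Of 34 members with a value in every tumour, 10 were highest in Control 4, where 22.4% of all genes were, so that this count is near the share of the whole array. These were Ptprb, Plvap, Clec14a, S1pr1, Eng, Fli1, Gja4, Tek, Ackr1 and Selp. A further 10 members were highest in Control 2 and 7 in Mutant 4, beside 7.66% and 6.6% of all genes. Red cell genes, a measure of blood in the tissue, were measured in 5 of 7 members and had a list level of -2.06, 1.09, -0.93 and 0.75 in Control and -0.92, 0.33, 0.82 and 0.92 in Mutant tumours. Control 2 and Mutant 4 were the highest of their groups and Control 1 the lowest, as for the 16 identity genes, whose list level was -0.36, 0.38, -0.23 and 0.04 in Control and -0.23, 0.01, 0.03 and 0.38 in Mutant tumours. The summed red cell signal ran from 4.74 to 8.05 in Control and from 6.14 to 8.20 in Mutant tumours, and the part of blood content in the endothelial levels was not tested.

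**Figure D3:**
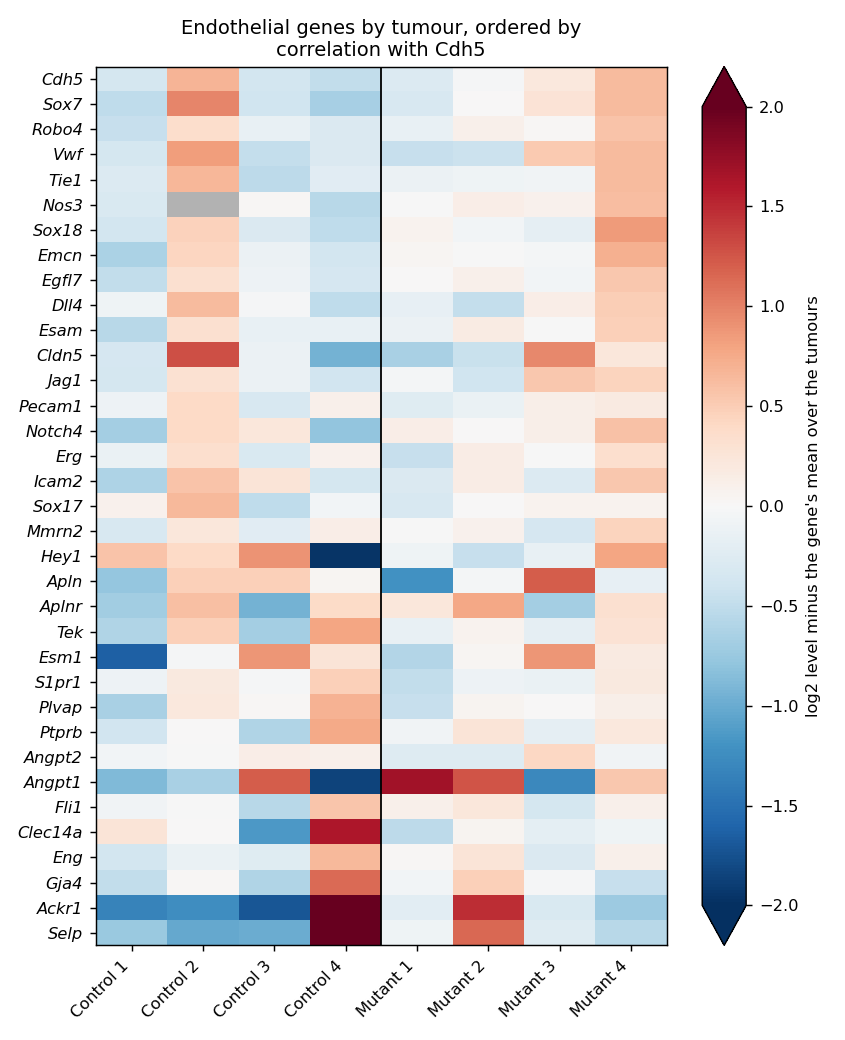
Log2 level of 35 endothelial genes in each tumour minus the gene's mean over the tumours, from blue (lower) to red (higher), with genes ordered by Pearson's r with Cdh5 and the missing Nos3 value in grey. The upper genes are red in Control 2 and Mutant 4, and the lowest rows, Ackr1 and Selp, are red in Control 4 and Mutant 2.

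**Figure D4:**
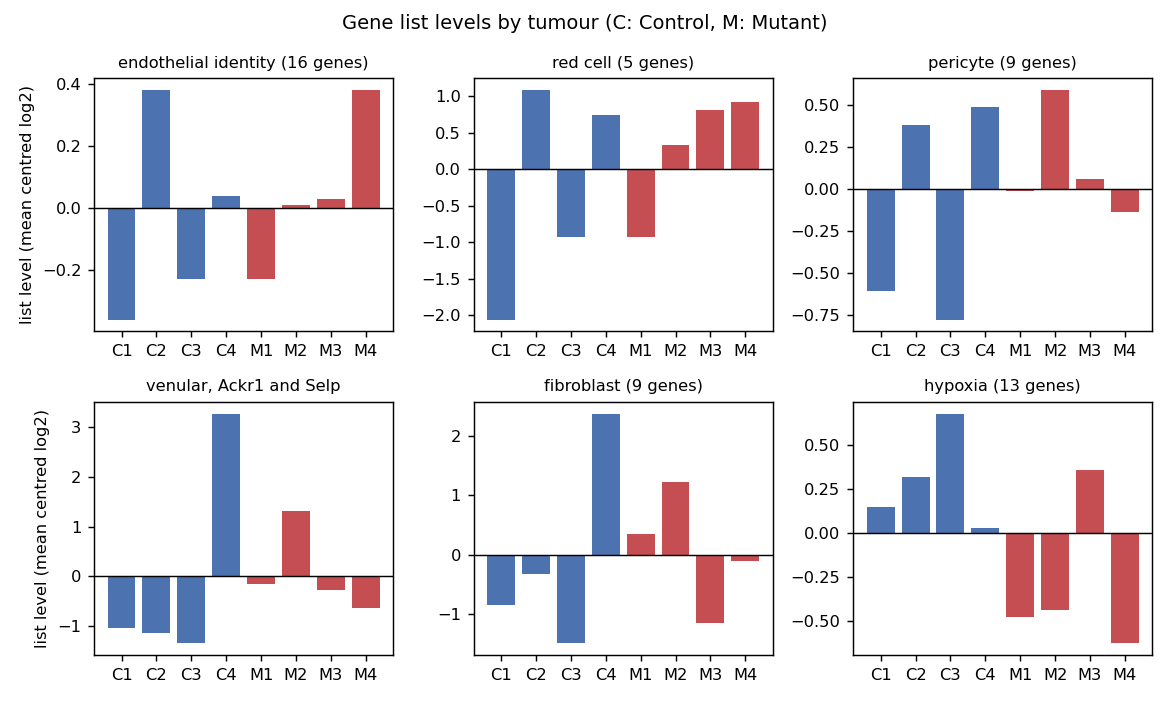
List level (mean of gene-centred log2 levels) in each tumour for endothelial identity, red cell, pericyte, venular, fibroblast and hypoxia genes, blue for Control and red for Mutant, with a separate vertical scale per panel. Identity and red cell levels are lowest in Control 1, and venular and fibroblast levels are highest in Control 4, at 3.27 and 2.38.

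Other endothelial genes, fixed in a list of 20, also held none that passed the test. Of 19 tested, 10 were above 0 and 9 below, with a median difference of 0.03 and a range from -0.31 to 0.37, and 0 had an unadjusted p under 0.05. The largest of these, Adgrl4, an adhesion receptor of endothelial cells, differed by 0.37 with a standard error of 0.25. Genes of capillaries in muscle and fat had a median of -0.18 over 10 of 11 genes. Skeletal muscle genes had differences above 0 in 12 of 12 members, 9 of them at an unadjusted p under 0.05 and 0 at an adjusted p under 0.05 by limma. The muscle list level was -0.49, 0.21, -1.96 and -3.13 in Control and 2.00, 2.79, -0.85 and 1.44 in Mutant tumours, with a summed signal from 2.64 to 4.94 in Control and from 4.00 to 6.99 in Mutant tumours. Mutant 1, 2 and 4, the tumours with the most muscle RNA, were also 3 of the 4 with high Angpt1, while Control 3, with the fourth, had little. The part of muscle RNA in the Angpt1 values was not tested.

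In the VEGF pathway, no gene passed over all genes. Vegfa, the main endothelial growth factor, read 2.99, 3.17, 3.76 and 2.83 in Control and 2.30, 2.34, 3.03 and 2.63 in Mutant tumours (difference -0.61). Flt1, the decoy VEGF receptor, read 3.05, 3.22, 3.24 and 3.41 in Control and 2.68, 2.39, 3.12 and 2.76 in Mutant tumours (difference -0.49, standard error 0.17). In both genes Mutant 3 was the Mutant tumour that overlapped with Control. Kdr, the signalling VEGF receptor, differed by 0.34 with a standard error of 0.29. None of the 9 tested genes of this list passed (limma adjusted p = 1), and the 2 with an unadjusted p under 0.05 were Flt1 and Vegfa.

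Among further genes of the tip cell, Notch and adhesion lists, none passed over all genes either. Adm, the vasodilator peptide adrenomedullin and a tip cell and hypoxia gene, differed by -0.91 with a standard error of 0.37, and the median of the 10 other tip cell genes was 0.04. Rbpj, the DNA-binding partner of Notch, read 3.11, 2.96, 3.38 and 3.19 in Control and 2.61, 2.95, 2.75 and 2.66 in Mutant tumours. The groups did not overlap, with Mutant 2 just under Control 2 (0.751-fold, limma adjusted p = 1). Of 13 tested other Notch genes 9 were above 0, with a median of 0.18. Vcam1, the adhesion molecule of activated endothelium that stromal cells and macrophages also carry, differed by 0.90 with a standard error of 0.36 (unadjusted p = 0.038 by limma, adjusted p = 1), and by 0.53 with its probes averaged. The E-selectin gene Sele was not above background on any array. Angiogenesis inhibitors had a median of 0.00 over 7 genes.

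Lists for cells around and within vessels were measured too. Pericyte genes had a median difference of 0.22 over 9 of 9 genes, with 7 above 0. Des, which pericytes share with skeletal muscle, differed by 2.10 and was the pericyte gene with an unadjusted p under 0.05. The pericyte list level was highest in Mutant 2 and Control 4, at 0.59 and 0.49. Leukocyte genes had a median of 0.00 over 7 of 7 genes, and platelet genes one of -0.10 over 9 genes. Of the platelet genes, Gp9 differed by 1.33 (limma unadjusted p = 0.00267) and, with normexp background correction, by 0.29 (limma adjusted p = 1 in both). Its groups did not overlap, but it was dim and above background on 2 of 4 Control arrays.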

How the data were processed

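The authors deposited 1 Agilent Feature Extraction file per tumour (version 10.7.3.1 per the file headers, 9.1 per the submitters' processing notes). Its processed signal is, per the file headers, an intensity after background subtraction and spatial detrending within the array, not scaled between arrays; the deposited flag columns (other) have no unit. The deposited value table holds intensity too, equal within 0.01% to the scanner values for 99.463% to 99.505% of probes, with column medians of 52.8 to 61.8. RNA input was 0.5 ug per the labels' protocols. All arrays lay on 1 slide with 1 scan. After removal of 66 to 117 outlier spots from each array, replicate spots were averaged, log2 values were centred on the array's 75th percentile, and a probe was kept if 4 or more of 8 arrays cleared background. Genes were named by RefSeq accession in a GRCm38.p6 table (1 gene for 32994 of 56605 probes, several for 0, none for 23611), and represented by the probe of highest mean. Coordinates are not printed, because the array was designed on a different assembly. Of the members 32 have 1 probe and 4 have several.

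The test between groups was limma (3.58.1, R 4.3.3) over 16068 genes with Benjamini-Hochberg adjustment, and single values by two-sided exact permutation over 70 arrangements. Simulated data, 10 draws, had independent normal noise per gene and 200 changed genes, with 2-, 4- and 8-fold changes mixed in each draw. Noise shared between genes was not simulated. In these draws limma recovered 46.3% of 2-fold, 81.3% of 4-fold and 91.4% of 8-fold changes, with 4.2% of calls false. This recovery is over all genes, whose median SD over tumours was 0.26, and was not computed for the members, whose median SD was 0.43. In the tumours themselves 0 of 12 skeletal muscle genes were called, at a median difference of 2.80. Arrays give no count depth, and 4 tumours per group limit the precision. Adipocyte and epithelial lists were also measured: median differences were 0.79 over 3 of 6 and -0.57 over 4 of 5 genes. Hypoxia genes had a median of -0.61. Members, lists and the rule for named genes (the 12 members of smallest p and 9 set members with every value, and up to 3 genes of smallest p per other list) were chosen with earlier results of these data known. Python 3.11.15 and pandas 2.3.3 served for tables. Alternatives covered background correction (normexp, offset 50, on median signals), 2 normalizations, 4 filters on dim probes, probes averaged or tested singly, the value table, a variance trend, array weights, replicate number and slide row as blocks, slide rows apart, and each tumour left out. Keeping outlier spots was added after the data were seen.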

Additional observations from a re-analysis of the deposited data

Results flagged for a closer look

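In groups of 4 tumours, a value was singled out when its gap to the nearest other tumour exceeded Dixon's 95% critical share of the group's range, which chance does in about 1 in 20 groups; 69 groups of member levels and 46 of list levels, from 23 lists, were examined, and 12 values met it. Ackr1 in Control 4 was at 1.00, with the next Control tumour at -4.32, and Selp in Control 4 was at -1.16, with the next at -4.38. In Control 2, Cdh5 was at 1.54 (next 0.51) and Vwf at 3.48 (next 2.35). In Mutant 4, Emcn was at 2.04 (next 1.36) and Tie1 at -0.59 (next -1.29). Sox17 in Mutant 1 was low, at -2.87 (next -2.54). Among list levels, the level of the venular genes was high in Control 4, at 3.27 (next -1.03). The mean level of the other lymphatic genes was also high there, at 1.21 (next -0.22). That mean includes Lyve1, at 0.68 in Control 4, while Foxc2 of the same list was lowest in Control 4, at 0.26. In addition, the tip cell genes were low in Control 1, at -1.04 (next 0.13), and in Mutant 3 the angiopoietin and Tie genes were at -0.28 (next 0.25) and the leukocyte genes at -0.43 (next 0.13).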

How the results depend on the processing

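No gene, and so no member, passed limma at an adjusted p under 0.05 under any of 24 other settings or with every probe tested by itself; the lowest adjusted p of a member was 0.136, for Angpt1 within slide row 1. The count of members at an unadjusted p under 0.05 was 0 to 4 (4 within each slide row). Over all genes 467 had such a p, beside 195 to 972 with single tumours left out, 1280 with array weights, 1912 within row 1 and 371 with the replicate block. The median difference of the members ranged from -0.01 to 0.21 with single tumours left out and from 0.01 to 0.27 under the others, moving by less than the 0.26 SD of the member level between tumours of a group. Across settings, a turned sign was counted only for differences larger than their standard error, leaving out 25 of 35. Of the 10 others, the sign turned for Sox18 (-0.04) and Jag1 (-0.19) within slide row 1 and for Angpt1 (-0.07) within row 2. Among genes outside the set it turned for Adgrl4 (-0.09), Nrp1 (-0.06), Cdh1 (0.20) and Ndufa4l2 (0.18) within row 1 and Tcf15 (0.02) within row 2; the cause was not tested. With normexp 21 of 35 members were above 0, beside 48.0% of all genes. Same-numbered tumours did not deviate together (correlations -0.314 to 0.078), but 4 such correlations cannot show whether the numbers pair the tumours. With the replicate block the members called stayed at 0 and the median at 0.11. Signal near background limits Clec14a, Prox1, Gp9, the dim lymphatic genes and the folds of Ackr1 and Selp.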
